A study of Rattus norvegicus with 14 samples.

Results

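Bone morphogenetic proteins (BMPs) and activins were followed through postnatal development of the rat epididymis, a long coiled duct where sperm from the testis mature and are stored. The genes were taken by symbol, 1 transcript cluster of the array per gene: Bmp2, Bmp4, Bmp7, Bmp8a, Inhba, Inhbb, Fst, Id1, Id2 and Id3. All 10 had a cluster of their own, out of 18166 genes measured. Each sample was a pool of whole organs from Sprague-Dawley rats, hybridised to 1 Affymetrix array. There were 3 pools of 7-day-old rats, 4 of 18 days, 4 of 28 days and 3 of 60 days. All animals were untreated as far as the labels say; the pups of the younger ages were kept with their mothers, and the older rats fed freely. The number of animals in a pool is not in the labels, so the p-values below measure the spread between pools. A pool holds epithelium, stroma, muscle, vessels and immune cells together, so fewer cells of a type and less RNA per cell cannot be told apart.

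Both groups of ligands belong to the TGF-beta family. BMPs act through type I receptors such as BMPR1A, BMPR1B and ACVR1 with a type II receptor, and their signal is carried by SMAD1, SMAD5 and SMAD9; activins, dimers of the subunits encoded by Inhba and Inhbb, use ACVR1B and carry their signal through SMAD2 and SMAD3. Follistatin, the product of Fst, binds activins tightly and keeps them from their receptors. The Id genes are early targets of BMP signalling, and their proteins bind helix-loop-helix transcription factors and keep them from DNA. In mice, activin A of the mesenchyme is needed for the embryonic duct to coil, and loss of Bmp4, Bmp7 or Bmp8a copies damages the adult epididymal epithelium.

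Values are log2 signals, so a difference of 1 is a 2-fold change; levels are means ± SD over pools and differences are given ± SE of a model fitted to all genes. The array medians over all 36685 clusters lay between 5.21 and 5.42. The median level of the 18166 genes tested was 6.48. The means of Bmp2 (5.42), Bmp8a (5.74) and Id2 (5.52) over all pools lay under that level. A background level of 4.92 was taken from 1344 olfactory and vomeronasal receptor genes, as their 95th percentile. All age means of the 10 genes lay above it. Otherwise levels of different genes are not set against each other, because probes differ in brightness. The tissue label was borne out by Lcn5, an epididymal lipocalin, at 13.47 ± 0.039 on day 60 (n = 3), and 18 of 19 measured epithelial genes were above background at that age.

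The promoters of 4 genes are shown. Inhba had the largest change of the set and its relative Inhbb was not called at any step, while Id1 and Id3 both fell between day 7 and day 18. Each is the run of 250 bases before the gene's start in RefSeq (rat build GRCr8), read on the gene's own strand from 5′ to 3′. Capitals mark the letters TATAAA and CCAAT on either strand, found in 12.9% and 34% of all 33469 promoters of that length. RefSeq's table held 7 of the 10 genes, and those of Bmp2, Bmp7 and Fst are not shown.
Inhba, minus strand, chr17:53804509-53804758: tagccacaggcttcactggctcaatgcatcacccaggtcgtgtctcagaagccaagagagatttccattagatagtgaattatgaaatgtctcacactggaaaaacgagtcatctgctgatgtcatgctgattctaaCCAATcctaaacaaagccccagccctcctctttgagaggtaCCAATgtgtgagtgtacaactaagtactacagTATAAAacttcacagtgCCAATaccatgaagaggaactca
Inhbb, minus strand, chr13:33089374-33089623: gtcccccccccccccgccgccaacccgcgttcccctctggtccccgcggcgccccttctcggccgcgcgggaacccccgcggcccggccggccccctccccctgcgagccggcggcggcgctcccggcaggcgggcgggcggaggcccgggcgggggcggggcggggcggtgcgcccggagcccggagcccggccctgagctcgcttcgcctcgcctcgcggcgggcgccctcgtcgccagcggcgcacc
Id1, plus strand, chr3:161671314-161671563: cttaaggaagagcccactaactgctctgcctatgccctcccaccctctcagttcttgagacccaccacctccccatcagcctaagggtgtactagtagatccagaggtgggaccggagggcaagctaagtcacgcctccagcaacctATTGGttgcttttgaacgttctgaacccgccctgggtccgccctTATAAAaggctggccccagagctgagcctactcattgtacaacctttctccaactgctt
Id3, plus strand, chr5:153656041-153656290: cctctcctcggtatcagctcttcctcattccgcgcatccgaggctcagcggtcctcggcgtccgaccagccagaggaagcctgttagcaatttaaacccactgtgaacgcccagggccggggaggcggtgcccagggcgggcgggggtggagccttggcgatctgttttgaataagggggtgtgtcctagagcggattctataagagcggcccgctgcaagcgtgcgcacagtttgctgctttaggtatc
Inhba and Id1 each hold 1 TATAAA, which starts 40 and 59 bases before the gene's start, and neither Inhbb nor Id3 holds one. The Inhba window is 43.6% G and C and the Inhbb window 86.8%, against a median of 51.2% over all promoters. GGCGCC, a palindrome known to bind SMADs of the BMP branch, is present in the Inhbb window in 2 places and in 8.69% of all promoters. It is not among the letters of the other 3 windows, and GTCTAGAC, TGANTCA (AP-1) and TGACGTCA (CRE), searched on both strands, matched none of the 4. CANNTG (E box), found in 65.5% of all promoters, matched in 1 place each in Inhba and Id1, and not in Inhbb or Id3. Such matches describe letters in these windows only.

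**Figure D1:**
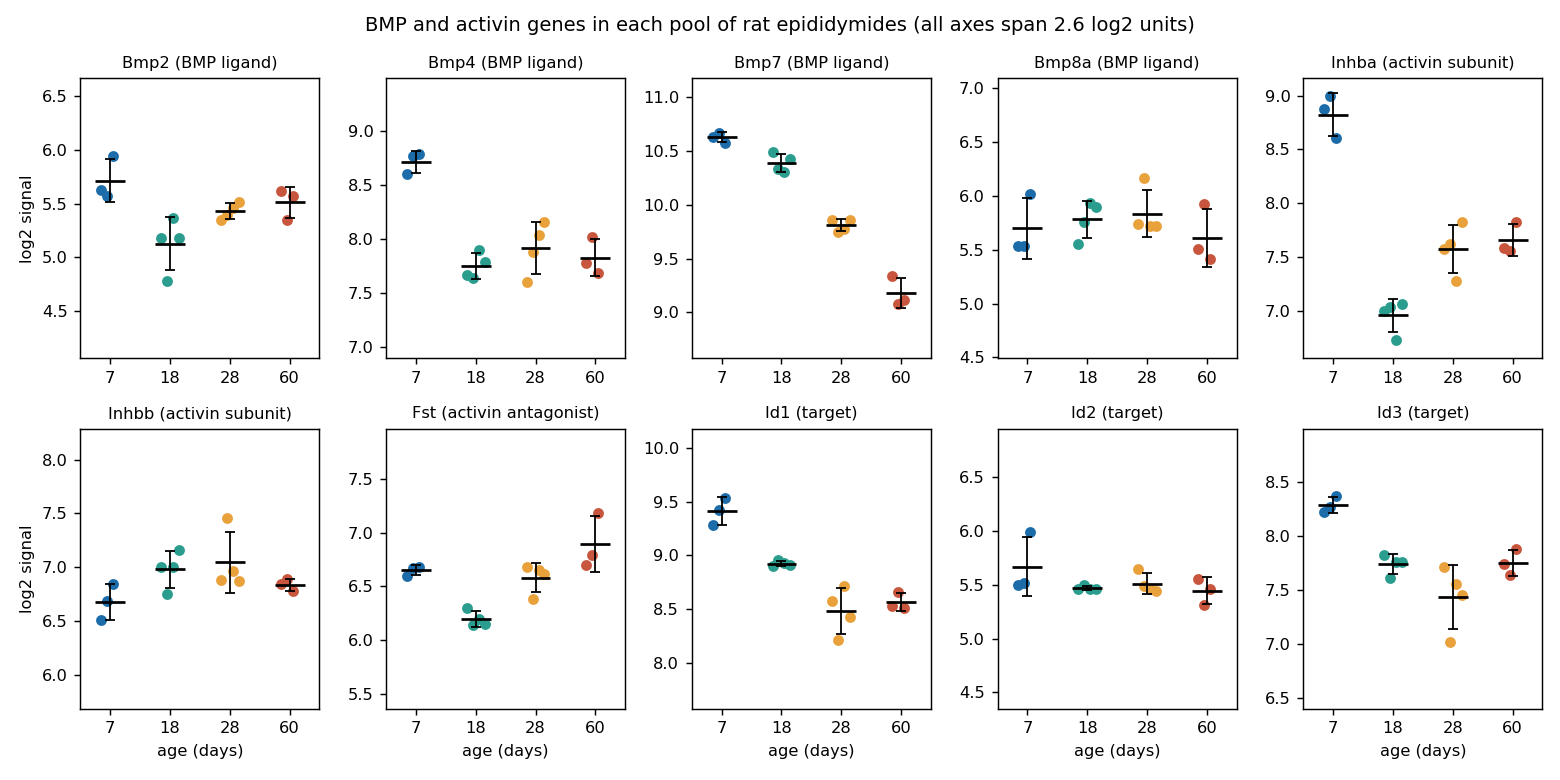
Log2 signal (y axis) of each of the 10 genes in every pool (points) at the 4 ages (x axis, days); black bars are means and whiskers SDs over 3 or 4 pools. Inhba drops from about 8.82 to 6.96 between day 7 and day 18 and partly returns, Bmp7 steps down at each age from 10.63 to 9.18, and Bmp8a, Inhbb and Id2 overlap between neighbouring ages.

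Of the 10 genes 7 differed between ages by limma's F test (adjusted p of 0.05 over all genes), against 60.4% of all genes. Bmp8a (adjusted p = 0.595), Inhbb (0.119) and Id2 (0.315) did not pass it. Between the lowest and highest age the mean of Inhba spanned 3.65-fold and that of Bmp7 2.73-fold. A span as large as theirs was found in 4.57% and 8.18% of all genes. The spans of Bmp4, Id1 and Id3 were 1.96-fold, 1.90-fold and 1.81-fold.

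Between day 7 and day 18, 0 of the 10 genes rose and 7 fell, against 17.4% of all genes called higher and 20.7% called lower (38.1% in either direction). The same 7 genes had values that did not overlap between the ages, as did 45.1% of all genes. The median difference of the 10 genes was -0.47 against 0.01 over all genes. In 1 gene, Inhba, the change was at least 2-fold, which held for 5.89% of all genes.

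Inhba, which encodes the subunit of activin A, had the largest fall. Its signals were 8.88, 8.99 and 8.60 in the day 7 pools and 7.00, 7.04, 6.73 and 7.07 in the day 18 pools. The lowest day 7 pool lay above every day 18 pool by far more than the range within an age. The difference was -1.87 ± 0.13, a 3.65-fold fall (adjusted p = 4.92e-08 by limma), and 0.297% of genes fell as much or more. Without any 1 pool it stayed between -1.98 and -1.78. Inhbb, the subunit of activin B, had signals of 6.51 to 6.84 at day 7 and 6.75 to 7.16 at day 18. These ranges overlap, and the difference of 0.30 (95% interval 0.01 to 0.60) did not pass (adjusted p = 0.103). It passed with the dimmer genes left out, those under the median level (adjusted p = 0.0492), without day 28 replicate 2 (0.0267) and when arrays were weighted (0.0343). The changes of the 2 subunits differed by -2.17 ± 0.20 in the same pools (adjusted p = 5.41e-07), a test added after the values had been seen.

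Follistatin moved the same way as Inhba by less. Fst was at 6.60, 6.68 and 6.68 in the day 7 pools and at 6.30, 6.14, 6.20 and 6.15 in the day 18 pools, so that every day 18 pool was lower. It fell by 0.46 on the log2 scale (SE 0.11, adjusted p = 0.0039). The fall of Inhba was the larger (difference of the 2 changes -1.41 ± 0.15, adjusted p = 3.32e-06).

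Among the BMP ligands, Bmp4 had the largest change at this step. Bmp4, a ligand made mainly by mesenchyme in many developing organs, had signals of 8.60, 8.77 and 8.79 at day 7 and 7.66, 7.63, 7.90 and 7.79 at day 18. All day 7 pools lay above all day 18 pools, and the difference was -0.97 ± 0.12 (1.96-fold, adjusted p = 1.88e-05). Bmp2, a close relative of Bmp4, had signals of 5.63, 5.57 and 5.94 at day 7 and 5.18, 4.78, 5.36 and 5.18 at day 18. Its day 18 pools were all lower, one of them under the background level, and the difference was -0.59 ± 0.13 (adjusted p = 0.00193).

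Bmp7, a ligand made by epithelium in many organs, was at 10.63, 10.67 and 10.58 at day 7 and at 10.49, 10.33, 10.30 and 10.42 at day 18, lower in all 4 pools. The difference was small, -0.24 ± 0.080 (adjusted p = 0.0281). The call was lost when replicate 1 or 2 of day 7 was left out (adjusted p = 0.0737 and 0.0957), or replicate 2 or 3 of day 18 (0.0667 and 0.0750), and with quantile normalization (0.0583) or arrays centred on their medians (0.0532). The fall of Bmp4 was larger than that of Bmp7 (difference of the changes -0.73 ± 0.15, adjusted p = 0.00106). Bmp8a, which is best known from germ cells, overlapped between the ages with a difference of 0.09 (95% interval -0.26 to 0.43, adjusted p = 0.723). Bmp8a and Bmp8b are alike in sequence, and signal shared between them was not separated.

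The targets Id1 and Id3 fell. Id1 was at 9.28, 9.42 and 9.53 at day 7 and at 8.90, 8.96, 8.93 and 8.91 at day 18, a tight group below every day 7 pool. Its difference was -0.49 ± 0.10 (adjusted p = 0.00168). Id3 was at 8.23, 8.27 and 8.37 at day 7 and at 7.83, 7.61, 7.76 and 7.76 at day 18, again without overlap. Its difference was -0.55 ± 0.13 (adjusted p = 0.00333). Id2 ranged from 5.50 to 5.99 at day 7 and from 5.46 to 5.50 at day 18. Its difference of -0.20 (95% interval -0.43 to 0.04) did not pass (adjusted p = 0.183), and it was -0.037 without day 7 replicate 3, the highest pool. The changes of Id1 and Id2 were not shown to differ (-0.29 ± 0.12, adjusted p = 0.0774). That difference passed without day 7 replicate 3 (adjusted p = 0.0371) or day 28 replicate 3 (0.0477), with the pools of the 2 ages alone (0.0313) and with array weights (0.0385).

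**Figure D2:**
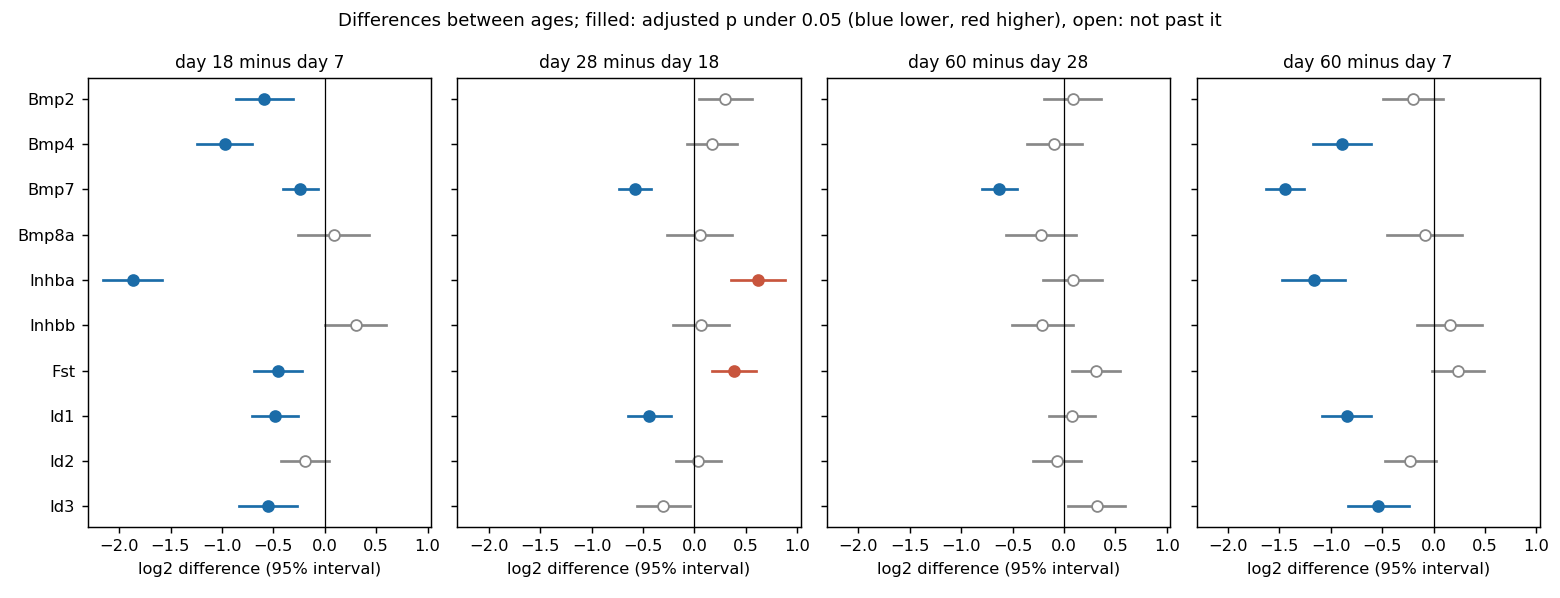
Log2 difference (x axis) of each gene (y axis) between ages, with its 95% interval from the model; filled points passed an adjusted p of 0.05. At the first step 7 genes are filled, all left of 0, while at the last neighbouring step Bmp7 alone is filled.

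Genes of other compartments moved over the same step. Of the fibroblast and matrix genes 0 of 17 rose and 16 fell (median -0.94), with a summed log2 signal of 15.58 to 15.67 at day 7 and 14.94 to 15.07 at day 18. For Inhba, Bmp4 and Fst, which such cells can express, their part in the result was not tested. Of the immediate early genes, which respond to handling of tissue as well as to signals, 1 of 17 rose and 14 fell (median -1.01), from 13.72 to 14.11 at day 7 to 12.13 to 12.30 at day 18. Id1 and Id3 are themselves quickly induced, and the part of such a response in their falls was not tested. Cell cycle genes fell in 16 of 17 and rose in 0, endothelial genes fell in 7 of 10 and rose in 1, and smooth muscle genes fell in 6 of 10 and rose in 0. Epithelial genes went the other way, with 12 of 19 higher and 0 lower, and so did leukocyte genes, with 8 of 14 higher and 0 lower. Every measured fibroblast, smooth muscle and endothelial marker was above background at all ages, as were 2 or 3 of 13 haploid germ cell genes at the ages before day 60 and 11 at day 60.

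**Figure D3:**
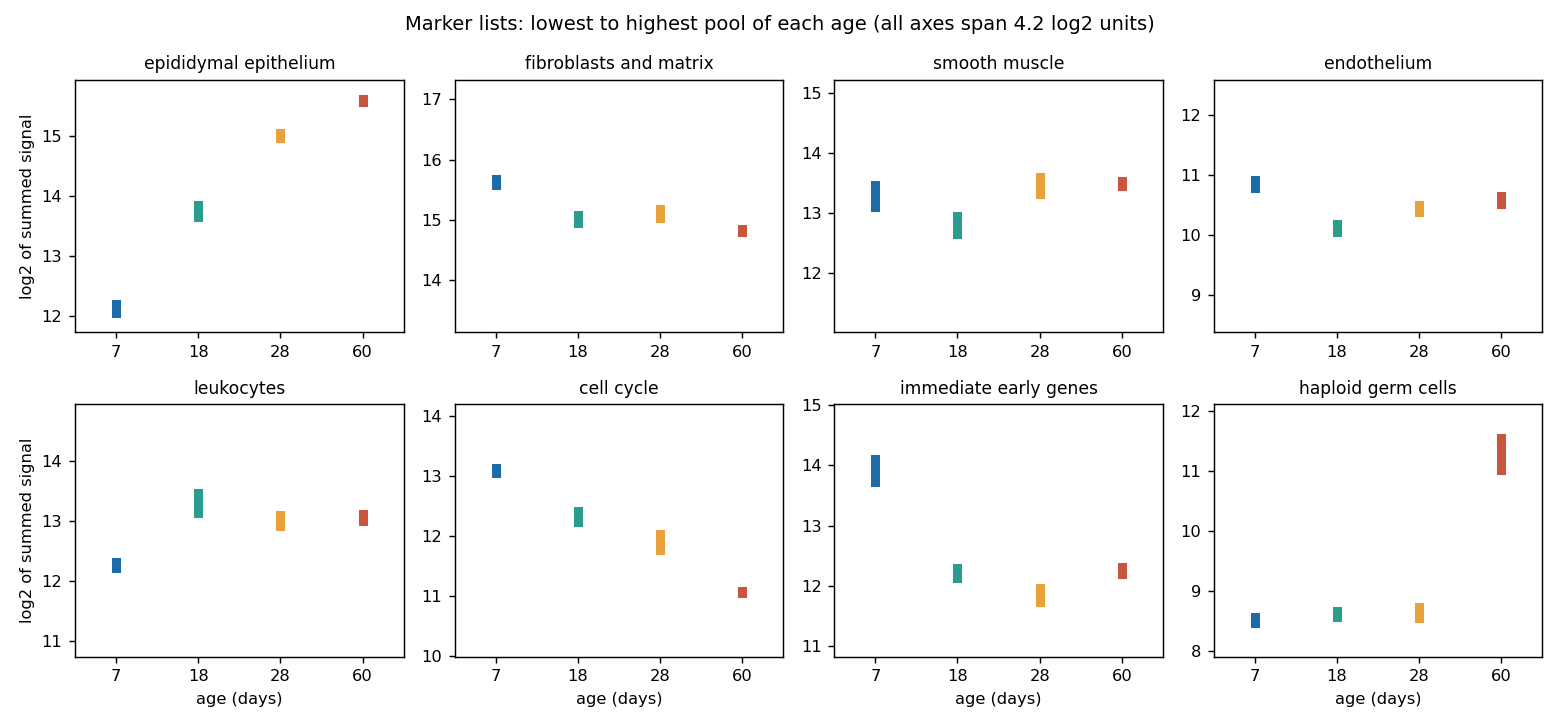
Log2 of the summed signal of each marker list (y axis) at the 4 ages (x axis, days); each bar runs from the lowest to the highest pool. Fibroblast and immediate early lists are highest at day 7 (at least 15.58 and 13.72), the cell cycle list steps down at each age, and the epithelial list steps up to 15.57 or more at day 60.

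Between day 18 and day 28 the genes parted. Inhba and Fst rose, Bmp7 and Id1 fell, and the other 6 did not pass. That made 2 of 10 higher and 2 lower, against 10.5% and 14.3% of all genes (24.7% in either direction). Their values did not overlap between the ages in 4 of 10 genes, against 26.5% of all genes. A called change of at least 2-fold was found in 0 of the 10 genes, against 2.16% of all genes. Without day 28 replicate 2, 4 genes were again called at this step.

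Inhba was at 7.57, 7.62, 7.28 and 7.82 in the day 28 pools, all above the highest day 18 pool of 7.07. It rose by 0.62 ± 0.12 (1.53-fold, adjusted p = 0.00195). Fst was at 6.68, 6.38, 6.65 and 6.61, also all above the day 18 pools. It rose by 0.38 ± 0.10 (adjusted p = 0.0121), with day 28 replicate 2 the lowest. Smooth muscle genes moved with them, 9 of 10 higher and 0 lower (median 0.65), and endothelial genes were higher in 5 of 10; their part in the result was not tested. Fibroblast and matrix genes were higher in 3 and lower in 2 of 17.

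Bmp7 was at 9.86, 9.75, 9.77 and 9.85 at day 28, below the lowest day 18 pool of 10.30. The difference was -0.58 ± 0.074 (1.49-fold, adjusted p = 4.44e-05). Bmp4 was at 7.60, 7.88, 8.04 and 8.15, on both sides of the day 18 pools, and its difference of 0.17 (95% interval -0.07 to 0.42) did not pass (adjusted p = 0.315). The changes of the 2 ligands differed by 0.75 ± 0.14 (Bmp4 minus Bmp7, adjusted p = 0.000917). Bmp2 overlapped between the ages, from 5.35 to 5.52 at day 28, with a difference of 0.30 ± 0.12 (adjusted p = 0.079). That difference passed without day 18 replicate 3 (adjusted p = 0.0345), and just passed with arrays centred on their medians. Bmp8a and Inhbb differed by 0.05 and 0.06 (adjusted p = 0.834 and 0.762). Both had 1 high pool, day 28 replicate 2, without which the differences were -0.06 and -0.07.

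Id1 was at 8.58, 8.21, 8.72 and 8.43 at day 28, each below the day 18 pools. The difference was -0.44 ± 0.097 (adjusted p = 0.00392), and -0.35 without day 28 replicate 2, the lowest pool. Id3 was at 7.71, 7.02, 7.56 and 7.45 and overlapped with day 18. Its difference of -0.30 ± 0.12 did not pass (adjusted p = 0.082). It passed without day 28 replicate 1 (adjusted p = 0.0268), with the dimmer genes left out (0.0328) and with an intensity trend (0.0369), and without day 28 replicate 2 it was -0.16. Immediate early genes were lower in 9 of 17 and higher in 0 at this step, and cell cycle genes lower in 14 of 17; their part in the result was not tested.

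Between day 28 and day 60, when germ cell transcripts appear in the organ, Bmp7 alone of the set was called. That is 0 of 10 higher and 1 lower, against 13.8% and 11.2% of all genes (25% in either direction). A change of at least 2-fold was again found in 0, against 1.95% of all genes. Bmp7 was at 9.34, 9.08 and 9.12 at day 60, below every day 28 pool. It fell by 0.63 on the log2 scale (SE 0.080, 1.55-fold, adjusted p = 5.65e-05). The changes of Bmp4 and Bmp7 differed by 0.54 ± 0.15 (Bmp4 minus Bmp7, adjusted p = 0.0155), but not without day 60 replicate 2 (0.0901).

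Fst came near the threshold at this step. Its day 60 pools were at 6.70, 6.79 and 7.19, all above the day 28 pools, so that with Bmp7 it was 1 of 2 genes without overlap (31.4% of all genes). The difference was 0.31 ± 0.11 (adjusted p = 0.0518). It passed without day 60 replicate 1 (adjusted p = 0.0244) and under 5 other settings, and without day 60 replicate 3, the highest pool, it was 0.16. Inhba was at 7.59, 7.56 and 7.83, overlapping with day 28 (difference 0.08, 95% interval -0.20 to 0.37, adjusted p = 0.697). Id3 was at 7.74, 7.64 and 7.88, with a difference of 0.32 ± 0.13 that did not pass (adjusted p = 0.0912) and passed without day 28 replicate 1 (0.0312), with the dimmer genes left out (0.0407) and with an intensity trend (0.0436). Id1 was at 8.53, 8.66 and 8.51 (difference 0.08, 95% interval -0.14 to 0.31). The changes of Id1 and Id3 were not shown to differ (-0.23 ± 0.11, adjusted p = 0.126), except without day 60 replicate 2 (0.0456). Fibroblast and matrix genes were lower in 9 and higher in 1 of 17 at this step, cell cycle genes lower in 16 of 17, and haploid germ cell genes higher in 10 of 13.

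Over the whole span from day 7 to day 60, 0 of 10 genes rose and 5 fell, against 21.7% of all genes higher and 27.6% lower (49.2% in either direction). Values did not overlap in 6 of 10, against 57.8% of all genes. The called change was at least 2-fold in 2 of 10, against 13.3% of all genes. These differences share their pools with the steps above. Bmp7 fell the most, by 1.45 on the log2 scale (SE 0.086, adjusted p = 2.29e-09). Inhba differed by -1.17 ± 0.14 (adjusted p = 6.03e-06), Bmp4 by -0.89 ± 0.13 (4.46e-05), Id1 by -0.85 ± 0.11 (1.34e-05) and Id3 by -0.54 ± 0.14 (0.00438). Bmp7 reached its lowest level at day 60, whereas Inhba and Bmp4 had theirs at day 18. Bmp2 differed by -0.20 (95% interval -0.50 to 0.09) and did not pass (adjusted p = 0.25). That difference was -0.088 without day 7 replicate 3 and -0.12 without day 60 replicate 2.

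The Fst difference from day 7 to day 60 was 0.24 (95% interval -0.01 to 0.49, adjusted p = 0.109), and every day 60 pool was above every day 7 pool. It passed with quantile normalization (adjusted p = 0.0284), with arrays centred on their medians (0.0249), with array weights (0.0250) and without day 60 replicate 1 (0.0363). Without day 60 replicate 3, the highest pool, it was 0.092 (adjusted p = 0.517). The change of Inhba from day 7 to day 60 differed from that of Fst by -1.41 ± 0.16 (adjusted p = 3.42e-06).

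The genes with the profile nearest to a member were sought for Inhba and Bmp7, the 2 whose age means spanned at least 1 on the log2 scale. Nearness was the root mean square difference of the values over the 14 pools after each gene was centred on its own mean. Nearest to Inhba were Tgfb2 (0.22), a further ligand of the family, Ngfr (0.23), a neurotrophin receptor, and Cd248 (0.24), a glycoprotein of fibroblasts and pericytes. Tgfb2 went from 8.88 ± 0.098 to 7.04 ± 0.17 between day 7 and day 18 and was at 7.36 ± 0.15 and 7.69 ± 0.12 later. Nearest to Bmp7 were Carhsp1 (0.077), an RNA-binding protein, Rplp0 (0.082), a ribosomal protein, and Hist2h3c2 (0.10), a histone. Within the set the pair Bmp8a and Inhbb was nearest (0.17), followed by Id1 and Id3 (0.18), and Inhba and Inhbb were the farthest apart (0.81). Many genes outside the set lay nearer. Among all genes Inhbb had rank 112 from Bmp8a, and Bmp8a had rank 398 from Inhbb. Id3 had rank 384 from Id1, and Id1 had rank 254 from Id3.

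**Figure D4:**
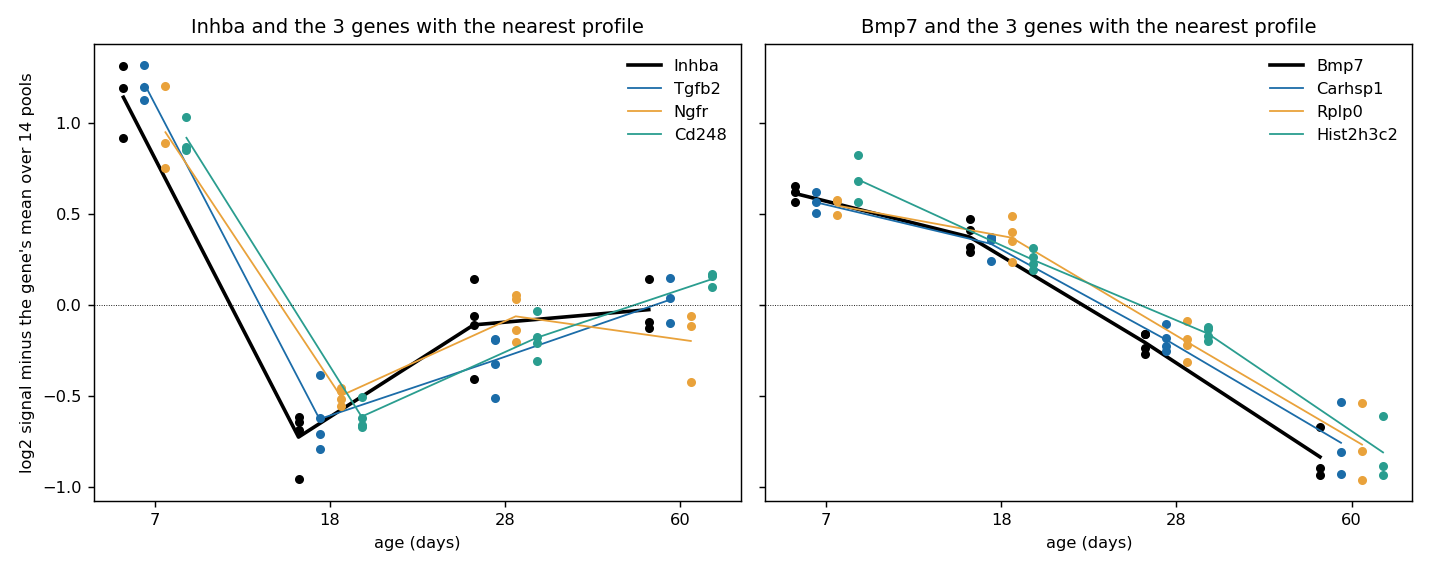
Centred log2 signal (y axis, the gene's mean over 14 pools set to 0) against age (x axis, days) for Inhba and Bmp7 and the 3 genes nearest to each; points are pools and lines join age means. The Inhba group is low at day 18, where Inhba itself has a mean of 6.96, and the Bmp7 group declines at each step.

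Of 15 measured receptors and co-receptors, 3 rose and 5 fell between day 7 and day 18 (median -0.15), 1 rose and 4 fell to day 28, and 2 rose and 0 fell to day 60. In either direction 53.3%, 33.3% and 13.3% were called at these steps, against 38.1%, 24.7% and 25% of all genes. Acvr1b, the type I receptor of activins, rose from 6.96 ± 0.10 to 8.24 ± 0.056 at day 18 (1.28 ± 0.086, adjusted p = 2.62e-08), at the step where Inhba fell. Bambi, a decoy receptor that lacks a kinase, went from 7.18 ± 0.26 to 6.16 ± 0.13 (-1.03 ± 0.14, adjusted p = 2.76e-05), and Acvrl1, a receptor of endothelial cells, fell by 0.80 (SE 0.090). Acvr2a, a type II receptor of activins, fell by 0.40 to day 28 (SE 0.076, adjusted p = 0.00134). Bmpr2, a type II receptor of BMPs, rose by 0.41 ± 0.096 to day 60 (adjusted p = 0.00567 by limma), and Tgfbr3, betaglycan, rose by 0.59 ± 0.077. Both rises came after a lower level at day 18. Tgfbr3 had fallen by 0.74 to day 18 (SE 0.077, adjusted p = 2.26e-06), a value chosen after it was seen. The first-step fall of Bmpr2, by 0.25, was not called (adjusted p = 0.0553). Its call between day 7 and day 60 ended under at least 1 alternative. The type I receptors of BMPs were picked after their values were seen. Bmpr1b rose by 0.30 ± 0.073 to day 18 and fell by 0.32 to day 28 (adjusted p = 0.00406 and 0.00286). Bmpr1a had age means between 9.01 and 9.31 and was not called at any of the 3 steps.

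Of 23 antagonists and modulators 2 rose and 13 fell at the first step (median -0.58). To day 28, 5 rose and 5 fell, and to day 60, 4 rose and 3 fell. Calls in either direction made up 65.2%, 43.5% and 30.4% at the 3 steps, against 38.1%, 24.7% and 25% of all genes. Nog, noggin, which binds BMPs, rose from 5.29 ± 0.28 at day 7 to 6.10 ± 0.10 at day 18 and 6.89 ± 0.095 at day 28, by 0.81 ± 0.13 and 0.79 ± 0.12 (adjusted p = 0.000131 and 0.000167). Fstl3, a relative of follistatin that also binds activins, moved like Fst in direction: it went from 8.20 ± 0.13 to 7.37 ± 0.18 and back to 8.33 ± 0.27 (-0.83 ± 0.14 and 0.96 ± 0.13, adjusted p = 0.000218 and 6.48e-05). The first-step values of Fstl3, and of Id4, were chosen after they were seen. Sostdc1, a BMP antagonist of epithelia, fell by 1.02 at the first step (SE 0.14), and Chrdl2, a chordin relative, rose by 0.89 ± 0.088 at the last. Both had a dip: Sostdc1 went from a mean of 7.31 at day 7 to 6.30 at day 18 and 7.33 at day 60. Chrdl2 went from 9.15 at day 7 to 8.56 at day 28 and 9.45 at day 60. Crim1, a membrane protein that binds BMPs, rose by 0.56 ± 0.10 to day 18 and fell by 0.60 to day 28 (SE 0.093).

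Of 15 SMADs and regulators 2 rose and 4 fell to day 18, 0 rose and 5 fell to day 28, and 0 rose and 2 fell to day 60. The shares called were 40%, 33.3% and 13.3%, against 38.1%, 24.7% and 25% of all genes. The 2 that rose to day 18 were Zfyve9 (0.50 ± 0.095, adjusted p = 0.000623 by limma) and Smad1, a SMAD of the BMP branch. The call of Smad1 was lost under at least 1 alternative. Smad5, of the BMP branch, went from 9.66 to 8.91 at the first step (-0.75 ± 0.11, adjusted p = 5.06e-05). Smad6, an inhibitory SMAD that BMPs induce, fell at both of the first steps with Id1: from 7.94 ± 0.14 to 7.46 ± 0.069 and 6.96 ± 0.079 (-0.48 ± 0.094 and -0.50 ± 0.087, adjusted p = 0.000886 and 0.000597). Smad7, the other inhibitory SMAD, fell by 0.53 to day 28 (SE 0.13, adjusted p = 0.00908). The corepressors Tgif1 and Tgif2 fell by 0.85 and 0.92 at that step and again to day 60, by 0.44 and 0.48.

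Of 14 other target genes 3 rose and 4 fell to day 18, 2 rose and 3 fell to day 28, and 0 rose and 2 fell to day 60. This amounts to 50%, 35.7% and 14.3% called, against 38.1%, 24.7% and 25% of all genes. Id4, the fourth of the Id genes, did not share the falls of Id1 and Id3. It went from 6.91 ± 0.061 at day 7 to 7.76 ± 0.072 at day 28, and it rose by 0.32 ± 0.091 to day 18 and by 0.54 ± 0.084 to day 28 (adjusted p = 0.0118 and 0.000277). Gata2, a transcription factor, fell by 1.10 to day 18 (SE 0.089, adjusted p = 1.81e-07), and Tbx3, another, rose by 0.39 ± 0.076. Over the 86 measured genes of all these lists, which overlap in part, 11 rose and 27 fell to day 18 (44.2% called, against 38.1% of all genes), 11 rose and 17 fell to day 28 (32.6% against 24.7%), and 10 rose and 8 fell to day 60 (20.9% against 25%).

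**Figure D5:**
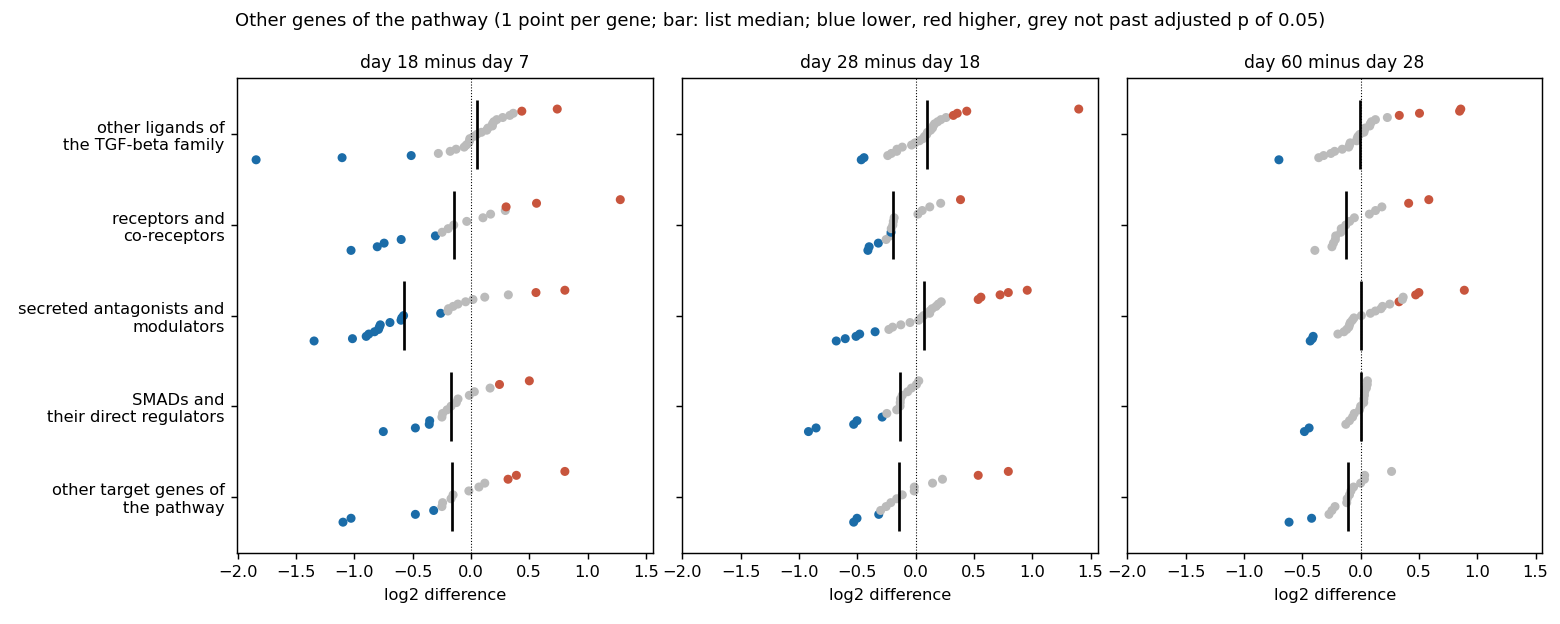
Log2 difference (x axis) of the other measured pathway genes, 1 point per gene, by list (y axis) for the 3 neighbouring steps; black bars are list medians and colours mark an adjusted p under 0.05. The antagonists' median lies at -0.58 in the first panel and near 0 in the others.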

How the data were processed

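RNA of 14 pools was hybridised, 1 array each. The deposited values are log2 signals per transcript cluster that the authors made with RMA in the Transcriptome Analysis Console, per the submitters' processing notes; versions are not given in the sources used here. RMA equalises the arrays, so a shift shared by all genes cannot be seen. Of 36685 clusters, 18511 had 1 gene symbol, 575 several and 17599 none listed; genes with several clusters (291) took the one with the highest mean. Symbols came from the platform annotation and were checked by gene ID against RefSeq (18394 matched, 0 changed).

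Ages were compared with limma 3.58.1 in R 4.3.3 (lmFit, eBayes, two-sided), with 1 mean per age over all 14 pools and Benjamini-Hochberg adjustment over 18166 genes at 0.05. The script was tested on simulated data. For 9 differences between the changes of 2 genes, the difference was added to the table as a further row. These pairs were chosen after the values were seen. No depth applies to arrays; the number of arrays limits the precision. The members and gene lists were chosen with earlier results of these data known, and the lists are described by counts without a test. Other pathway genes were chosen from those given by a rule: per list and comparison, the 2 called genes with the largest rise and the 2 with the largest fall. Some genes that the rule gave are not named, also where their calls held. Values of named genes whose calls ended under an alternative were left out. The first-step values of Tgfbr3, Fstl3, Id4 and Ltbp3 and both values of Bmpr1b were not run under the alternatives. Nor were the steps of Bmpr1a or the first step of Bmpr2. Correlations between arrays of an age were 0.989 to 0.995, and 0 pairs were identical. Quantile normalization, median centring, a signal filter, another variance model, fewer pools, array weights, cluster means, a replicate block and left-out pools were tried.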

Additional observations from a re-analysis of the deposited data

Results flagged for a closer look

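In 3 of 20 groups of 4 pools (10 genes at day 18 and at day 28), 1 pool lay far from the others by Dixon's test at the 95% level, which chance alone gives in about 1 of 20 groups. Bmp8a was at 6.17 in day 28 replicate 2, where the nearest other pool was at 5.74. Inhbb was at 7.46 in the same pool, where the nearest was at 6.96. Id2 was at 5.50 in day 18 replicate 2, where the nearest was at 5.46, a gap of little size in a group that spans very little. None of these 3 genes was called in a comparison of ages.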

How the results depend on the processing

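Calls of the 10 genes between day 60 and day 28 numbered 1, and 2 with quantile normalization, median centring or array weights. They numbered 3 with an intensity trend and robust hyperparameters. With genes under the median level left out, which keeps 7 of the 10, they also numbered 3. With 1 pool left out they ranged from 1 to 2. In the other comparisons the number of calls stayed within 1.5 times under every alternative run. The sign turned in differences that were not called: Id1 between day 28 and day 60 (0.08) was -0.017 with quantile normalization, and between day 18 and day 28 Bmp8a (0.05) and Inhbb (0.06) were -0.024 and -0.015 with array weights. With 1 pool left out, differences between day 18 and day 28 ranged from -0.058 to 0.10 for Bmp8a, from -0.074 to 0.13 for Inhbb and from -0.0084 to 0.060 for Id2. Between day 28 and day 60 they ranged from -0.0083 to 0.16 for Id1 and from -0.015 to 0.17 for Inhba, and between day 7 and day 60 from -0.24 to 0.077 for Bmp8a. The cause was not tested. Among the other pathway genes that the rule names, calls of Bmp5 and Smad1 (day 18 against day 7), Bmp3 and Acvr1c (day 28 against day 18) and Bmpr2 (day 60 against day 7) ended under at least 1 alternative. Centring on medians or quantile normalization moved the median of all genes by less than 0.1.

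Replicate numbers did not pair the pools: same-numbered pools of different ages had correlations of deviations from -0.14 to 0.046 (19 pairs, median 0.0071, 0 over 0.1). With the replicate number as a block, 7, 5, 1 and 5 of the 10 genes were called in the comparisons of day 18 with 7, 28 with 18, 60 with 28 and 60 with 7, against 7, 4, 1 and 5 without it. The added gene was Bmp2 (adjusted p = 0.0369 with the block, by limma).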

Other observations

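Of 25 other measured ligands of the TGF-beta family, 2 rose and 3 fell to day 18. To day 28, 4 rose and 2 fell, and to day 60, 4 rose and 1 fell. The shares called were 20%, 24% and 20%, against 38.1%, 24.7% and 25% of all genes. Of the 25, 15 had a mean above background. The TGF-beta ligands, of the same family as the activins, followed several courses. Tgfb3 fell by 1.10 on the log2 scale between day 7 and day 18 (SE 0.11, adjusted p = 1.02e-06 by limma) and went from 9.51 ± 0.10 at day 7 (SD, n = 3) to 8.03 ± 0.10 at day 60 (n = 3). Tgfb1 fell by 0.47 between day 18 and day 28 (SE 0.083) and rose by 0.85 ± 0.090 between day 28 and day 60 (adjusted p = 0.000803 and 1.18e-05), so that its lowest mean was 8.64 ± 0.16 at day 28 (n = 4). Ltbp1 and Ltbp3, which hold latent TGF-beta in the matrix, fell by 1.34 and 0.87 between day 7 and day 18 (adjusted p = 4.45e-08 and 5.90e-06). The Ltbp3 value was chosen after it was seen.

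Lefty2, a ligand that antagonises Nodal, was below the background level at day 7 and day 18, with means of 4.27 ± 0.15 and 4.55 ± 0.27. It was above it in every pool at day 28 (5.67 to 6.18) and at day 60 (6.08 to 6.32). It was called higher at day 28 than at day 18 (adjusted p = 3.13e-06 by limma), and no size is given because the earlier level is at background. Gdf15, a ligand induced by stress in many cells, rose by 0.74 ± 0.15 between day 7 and day 18 (adjusted p = 0.00128).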
